A study of Mus musculus with 29 samples.

Results

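Gene expression was compared between the 3 arrays labelled Dox at 24 h and the 3 arrays labelled Dox at 6 h, to describe how cultures kept in doxycycline changed over their first day. These 6 arrays were chosen by their titles and are 6 of the 29 in the study. The cells were primary keratinocytes, the epithelial cells of the epidermis, from the tail skin of C57BL/6 mice. All carried the c-FostetON transgene, in which doxycycline (Dox) switches on c-Fos, and were cultured at 32 °C in the serum-free medium KC-SFM. The treatment label gives Dox at 1 µg per ml, while the growth label gives the same figure per litre. The untreated cultures carried the same transgene and received no Dox. Those at 12 h (2 arrays) and 24 h (3 arrays) served as a measure of change over time without the drug. Untreated and Dox arrays at 48 and 72 h entered the normalization, the probe filter and the estimate of the spread. No Dox-treated culture without the transgene was analysed here, so an effect of Dox itself and an effect of c-Fos cannot be told apart. The labels do not say which promoter drives the transgene, how many mice or clones the cells came from, or whether replicates are separate cultures. The p-values therefore measure the spread between arrays of a group, pooled over the 9 groups fitted, and this spread may be technical.

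c-Fos pairs with Jun proteins to form AP-1, a transcription factor that binds the DNA letters TGANTCA. In keratinocytes AP-1 acts on matrix proteases, cytokines and many genes of the cornified envelope, the protein shell that a keratinocyte builds as it leaves the basal layer, passes through the spinous layer and dies as a scale. Genes of the immediate-early class, which include Fos and Jun themselves, rise within minutes of serum, growth factor or medium change and then decline.

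The probe for Fos did not show the label's treatment. Its normalized log2 signal was 7.16, 6.72 and 7.25 on the arrays labelled Dox at 6 h and 5.84, 5.76 and 6.08 at 24 h, against 6.86, 6.52 and 6.59 in untreated cultures at 24 h. At 24 h Fos was lower by label, with a Dox minus untreated difference of -0.76 ± 0.15 (SE; adjusted p = 0.0054). No label says whether this probe can read RNA made from the transgene. Mmp10, the matrix protease stromelysin-2, differed the other way at 24 h, at 9.0, 8.82 and 8.84 on the arrays labelled Dox and 6.66, 7.21 and 6.72 on the untreated ones (2.02 ± 0.15, adjusted p = 1.19e-08). "With Dox" below means on the arrays labelled Dox, and directions are those of time within that label.

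Each array carried 25697 probes. Between 34.0% and 37.8% of them were detected, meaning a detection p under 0.01, and median raw signals lay between 54.5 and 74.5. The precision is limited by the number of arrays. Of 12 keratinocyte identity genes on the array, 11 were detected on all 6 Dox arrays. Sums given here are of normalized signal, less the offset of 16, over all genes of a list on the array. Quantile normalization gives every array the same distribution, so they are not a check on unprocessed signal. The keratinocyte list summed to 58800 to 61400 at 6 h and 60300 to 64000 at 24 h. Of 14 fibroblast genes, 11, among them Col1a1, Col1a2, Pdgfra and Dcn, were detected on none of the 6, and the list summed to 94.9 to 98.5 at 6 h and 69.2 to 87.5 at 24 h. Of 13 immune cell genes 12 were detected on none, Ptprc included, with sums of 60.4 to 72.9 and 61.1 to 80.5. Among 7 melanocyte genes, Dct and Pmel were detected on all 6 and Tyr and Mitf on none, with sums of 62.3 to 82.6 and 81.8 to 103. Of 13 hair follicle and sebaceous genes, Sox9 and Plin2 were detected on all 6 and 10 on none. That list summed to 224 to 236 at 6 h and 197 to 203 at 24 h. Of 9 endothelial and muscle genes, Acta1 was detected on all 6 and 6 on none, with sums of 86.5 to 105 and 105 to 122. The distributions of the authors' own values divide the 29 arrays into 4 array sets. All Dox 6 h arrays belong to set 1, Dox 24 h replicate 1 to set 2, and Dox 24 h replicates 2 and 3 to set 3, so set and time cannot be told apart within these 6 arrays. All untreated 24 h arrays belong to set 2, so the differences by label at 24 h given above for Fos and Mmp10 also partly compare sets. The sets share other groups, which allows a fit with the set as a block. A pair of probes for Actb also differed between arrays: their log2 difference lay between -4.03 and -2.83 on the 6 Dox arrays, but was 1.64 and 1.11 on the untreated 12 h arrays and 0.91 on untreated 24 h replicate 1, whose comparisons are given below with that in view.

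Between 6 and 24 h with Dox, 10 of 16 immediate-early genes and 15 of 18 genes of the cornified envelope fell, and 14 of 15 genes of mitosis and 13 of 23 genes of DNA replication rose. Of 8194 genes measured, 1479 (18%) passed the threshold, an adjusted p below 0.05 in limma's moderated test with the Benjamini-Hochberg correction. Of these 684 (8.35%) were higher at 24 h and 795 (9.70%) lower. Changes of at least 2-fold were few, at 20 genes higher (0.244%) and 61 lower (0.744%). The arrays of the 2 times did not overlap for 2732 genes (33.3%), and both criteria held for 1405 (17.1%). The median log2 difference over all genes was 0.01 and the median SE 0.130. Arrays correlated at 0.991 or more within a time and at 0.980 to 0.983 between times.

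The array sets limit this count. With the set as a fixed block, which links the 2 times only through the 2 untreated 12 h arrays, the median SE rose to 0.284 and 36 genes passed, of which 33 were among the 1479. In that fit Dox 24 h replicates 2 and 3 are the only link of set 3 to the other sets, so they serve only to set its level. Every fixed-block value that involves Dox 24 h, here and below, therefore rests on Dox 24 h replicate 1 alone. The difference between 24 h and 6 h kept its sign in 1345 of the 1479. With the set as a random block 1126 genes passed. Under the fixed block 31 of 43 gene list medians moved by more than the SD between arrays, and where such a move exceeded 1.5 times it is given beside the median below. Scaling also mattered: with median scaling 917 genes passed, 616 higher and 301 lower, a share of 67.2% higher against 46.2% here. With the authors' values, whose distributions differ between the sets and which moved the median of all genes by 0.20, 6318 passed, 6220 of them higher. The same values quantile normalized over all arrays gave 1567, with 46.2% higher. The RNA came from whole cultures, so fewer cells of a type and less RNA per cell cannot be told apart.

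**Figure D1:**
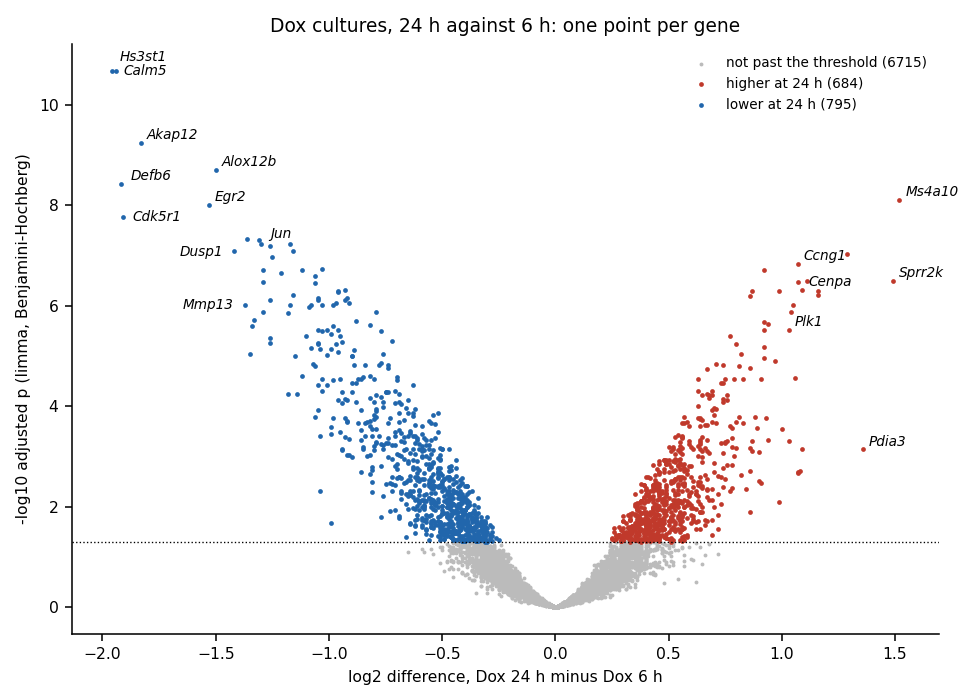
Each point is 1 of 8194 genes, placed by its log2 difference between Dox 24 h and Dox 6 h (horizontal) and by -log10 of its adjusted p (vertical), with the threshold of 0.05 dotted. The points reach further to the left, to Hs3st1 at -1.96, than to the right, where Ms4a10 lies at 1.52.

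Hs3st1, which adds sulphate groups to heparan sulphate chains, had the largest fall of the 8194 genes. It read 8.20, 8.25 and 8.21 at 6 h and 6.46, 6.02 and 6.29 at 24 h, a log2 difference of -1.96 ± 0.11 (adjusted p = 2.11e-11). The lowest 6 h array stood above the highest 24 h array, which was a condition for naming each gene of this paragraph. Calm5, a calmodulin-like calcium-binding protein of the epidermis, went from 8.23, 8.21 and 8.25 to 6.12, 6.31 and 6.44 (-1.94 ± 0.11, adjusted p = 2.11e-11). Akap12, a scaffold that holds protein kinase A, went from 9.97, 10.02 and 9.87 to 8.19, 8.16 and 8.03 (-1.83 ± 0.12, adjusted p = 5.81e-10). In each of these the 2 times were separated by more than the spread within either. Cdk5r1, the activator of the kinase Cdk5, fell by 1.91 on the log2 scale, and Atp1b1, a subunit of the sodium pump, by 1.34. Snai3, a Snail-family repressor, fell by 1.36, and H1f2, a linker histone and one of the brightest probes named, by 1.31 from 12.52, 12.57 and 12.61. Hs3st1, Calm5, Akap12, Cdk5r1 and Snai3 also passed with the set as a fixed block.

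Most AP-1 subunits fell. Of 7 measured members 6 fell and 1 did not pass, and the list's median log2 difference was -0.85, against 0.01 over all genes. Jun, the main partner of c-Fos, read 7.18, 7.33 and 7.42 at 6 h, 6.64, 6.94 and 6.61 at 12 h and 6.10, 5.76 and 6.16 at 24 h (24 h minus 6 h -1.30 ± 0.12, adjusted p = 5.99e-08). All 24 h arrays lay below all 12 h arrays, which lay below all 6 h arrays. No overlap between 24 h and 6 h was a condition for naming Jun among the largest falls. Fos itself fell by 1.15 (SE 0.15, adjusted p = 9.9e-06) and Junb, a Jun relative, by 1.08, from 10.76, 10.78 and 10.65 to 9.77, 9.58 and 9.60. Atf3, a stress-induced member of the same protein class, fell by 0.85, Jund by 0.64 and Fosl1 by 0.50. With the fixed set block Fos passed (-1.58, adjusted p = 0.041) and Jun did not (-1.11, adjusted p = 0.0682).

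Of the other immediate-early genes 10 of 16 fell and 6 did not pass, with a median of -0.76. Egr2, a zinc-finger transcription factor, went from 7.37, 7.21 and 7.45 to 5.96, 5.79 and 5.70 (-1.53 ± 0.12, adjusted p = 1e-08). Dusp1, the phosphatase that switches off MAP kinases, went from 9.60, 9.61 and 9.86 to 8.15, 8.25 and 8.41 (-1.42 ± 0.13, adjusted p = 8.07e-08). The 24 h arrays lay below the 6 h arrays in both, which was a condition for naming them. Zfp36, which destabilises short-lived mRNAs, fell by 1.06, Klf4, a barrier transcription factor, by 1.04, Egr1 by 0.88 and Ier3 by 0.79. Further feedback regulators of MAP kinase signalling fell in 5 of 7 cases, with a median of -0.57 (-0.38 with the fixed set block), led by Errfi1, an inhibitor of the EGF receptor (-0.91 ± 0.10, adjusted p = 8.96e-07), Dusp14 (-0.84) and Dusp6 (-0.64). The 2 other probes for Dusp6 gave -0.16 and -0.04, neither past the threshold. Of 5 measured EGF receptors and ligands 2 fell: Hbegf, a ligand, by 0.68, and Egfr, the receptor, by 0.33. Of the 3 other Egfr probes 2 also fell, and the other gave -0.18 (adjusted p = 0.576).

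**Figure D2:**
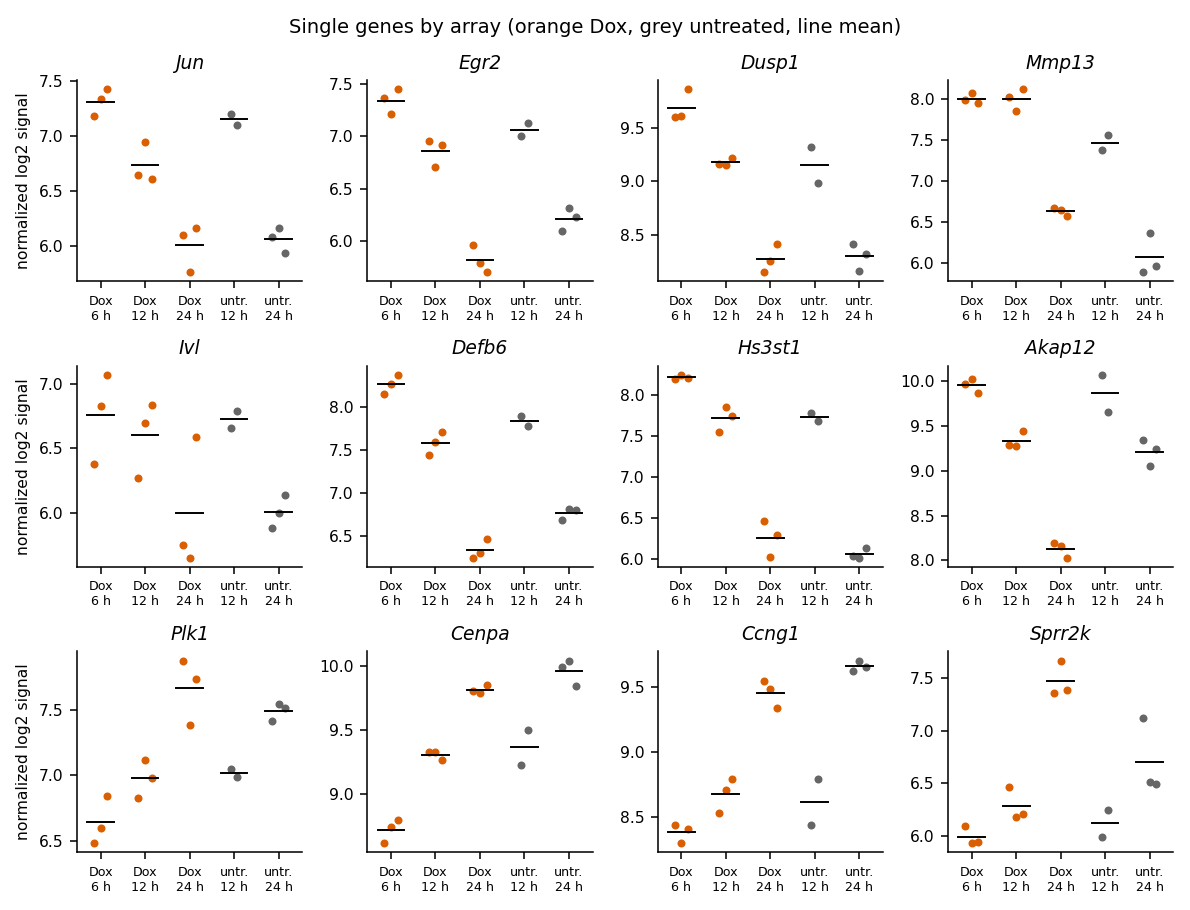
Normalized log2 signal (vertical, a scale of its own in each panel) of 12 genes on each Dox array at 6, 12 and 24 h and each untreated array at 12 and 24 h, with a line at each mean. Jun, Egr2 and Dusp1 step down at each Dox time, Mmp13 is level from 6 to 12 h and lower at 24 h, and Ccng1 and Sprr2k rise mainly between 12 and 24 h.

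Matrix metalloproteinases cut collagens and other matrix proteins, and several are known AP-1 targets. Of 12 measured proteases and inhibitors 6 fell, 1 rose and 5 did not pass, with a median of -0.27. Mmp13, collagenase-3, read 7.99, 8.08 and 7.95 at 6 h, 8.03, 7.86 and 8.12 at 12 h and 6.67, 6.65 and 6.58 at 24 h (-1.37 ± 0.15, adjusted p = 9.79e-07). The 6 h and 12 h arrays overlapped and the 24 h arrays lay apart from both. Separation of 24 h from 6 h was a condition for naming Mmp13 among the largest falls. Mmp10 went from 9.79, 9.69 and 9.56 to 9.0, 8.82 and 8.84 (-0.79 ± 0.15, adjusted p = 0.000556). Mmp3, stromelysin-1, fell by 0.99, but its 2 other probes gave -0.31 (adjusted p = 0.159) and -0.38 (adjusted p = 0.0485). Mmp9, gelatinase B, fell by 0.84. The inhibitors split. Timp3 fell by 1.05, though its second probe gave 0.03 (adjusted p = 0.898). Timp1 rose from 5.72, 5.77 and 5.70 to 6.94, 6.59 and 6.41 (0.91 ± 0.13, adjusted p = 2.93e-05), and its second probe gave 0.88.

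Promoters of 4 genes are printed to show where the AP-1 letters lie, for 3 that fell (Mmp13, Mmp10 and Ivl, the cornified-envelope protein involucrin) and 1 that rose (Sprr2k, a small proline-rich protein). Each runs 5′ to 3′ on the gene's strand from 250 bases before the annotated start over 50 bases after it, from RefSeq on GRCm38.p6, with matches to TGANTCA, the same on both strands, in capitals. Their intervals are chr9:7272264-7272563 (+) for Mmp13, chr9:7502092-7502391 (+) for Mmp10, chr3:92573686-92573985 (-) for Ivl and chr3:92432332-92432631 (+) for Sprr2k.
Mmp13: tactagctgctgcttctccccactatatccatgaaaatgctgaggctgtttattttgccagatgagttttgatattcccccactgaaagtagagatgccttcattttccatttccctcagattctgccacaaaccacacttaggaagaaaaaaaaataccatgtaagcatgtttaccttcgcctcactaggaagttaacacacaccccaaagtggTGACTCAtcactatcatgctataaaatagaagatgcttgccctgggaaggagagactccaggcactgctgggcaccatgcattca
Mmp10: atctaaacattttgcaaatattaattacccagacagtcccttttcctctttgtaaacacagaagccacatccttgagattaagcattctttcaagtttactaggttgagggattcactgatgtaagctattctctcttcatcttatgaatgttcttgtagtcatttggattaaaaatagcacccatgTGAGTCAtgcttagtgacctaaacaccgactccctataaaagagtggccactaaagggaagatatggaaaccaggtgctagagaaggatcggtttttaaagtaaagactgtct
Ivl: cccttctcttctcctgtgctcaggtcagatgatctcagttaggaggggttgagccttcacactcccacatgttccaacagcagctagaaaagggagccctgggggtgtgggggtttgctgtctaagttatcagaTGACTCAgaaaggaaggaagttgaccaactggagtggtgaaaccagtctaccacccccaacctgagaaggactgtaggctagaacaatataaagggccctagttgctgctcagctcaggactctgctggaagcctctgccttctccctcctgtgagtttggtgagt
Sprr2k: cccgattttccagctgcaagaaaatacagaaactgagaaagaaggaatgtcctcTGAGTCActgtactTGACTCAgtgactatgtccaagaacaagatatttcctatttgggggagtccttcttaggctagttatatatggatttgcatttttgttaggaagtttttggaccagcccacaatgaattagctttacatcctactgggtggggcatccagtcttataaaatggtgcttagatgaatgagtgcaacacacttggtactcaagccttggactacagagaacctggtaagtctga

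The match begins at position -35 from the start in Mmp13, -63 in Mmp10 and -116 in Ivl, and at -196 and -182 in Sprr2k. The letters occurred in 7 of 9 small proline-rich genes with a promoter in the table, 6 of 16 cornified-envelope genes and 4 of 10 metalloproteinases and inhibitors. They occurred in none of 6 AP-1 subunits, 6 genes of MAP kinase feedback, 8 antimicrobial genes, 7 matricellular genes and 5 spinous layer genes, lists in which members also fell, and in 1 of 10 other immediate-early genes. The share was 8.97% over 27025 genes, 7.17% over 6682 measured genes, 5.77% over the 555 called higher and 10.6% over the 639 called lower. The motif and the promoters were picked after the expression results were known, the promoters because they hold a match, so the shares are a description without a test. A match is not a binding site, and genes with a match both rose and fell.

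Most late differentiation genes fell. Of 18 measured genes of the cornified envelope 15 fell and 3 did not pass, with differences from -1.35 to 0.37 and a median of -0.65. With the fixed set block the median was -0.35. Rptn, repetin, fell by 1.35 (SE 0.18, adjusted p = 9.15e-06), and its second probe by 0.48. Cnfn, cornifelin, went from 12.10, 12.14 and 12.19 to 11.14, 11.06 and 11.15 (-1.03 ± 0.10, adjusted p = 1.85e-07). Asprv1, a protease that processes filaggrin, fell by 0.93, Tgm1, the transglutaminase that cross-links the envelope, by 0.83, and Lce1m by 0.80. With the fixed set block Rptn and Cnfn passed, and Tgm1 gave -0.05 (adjusted p = 0.968). Ivl varied more between arrays, from 6.38, 6.83 and 7.07 to 5.75, 5.65 and 6.59 (-0.76 ± 0.19, adjusted p = 0.00631), and its 24 h replicate 3 lay within the 6 h range. Klk5, a protease that frees scales from the surface, fell by 1.33.

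In the spinous layer list 7 of 12 genes fell and 5 did not pass, with a median of -0.42 (-0.21 with the fixed set block). Grhl3 and Ovol1, transcription factors of epidermal differentiation, fell by 1.18 and 1.12, and Krt10, the layer's keratin, fell by 0.39. Grhl1, a relative of Grhl3, fell by 0.65, and its second probe gave -0.40 (adjusted p = 0.0723). The basal layer and hemidesmosome list had a median of 0.06. Of its 13 members 1 rose, Itgb4, an integrin of the hemidesmosome (0.38 ± 0.10, adjusted p = 0.0133), and 12 did not pass. The second Itgb4 probe gave -0.05 (adjusted p = 0.827). Among 8 wound and simple keratins 1 fell, Krt16 (-0.59), and 7 did not pass. Krt6a was among these 7 by its brightest probe (0.68), while its other probe gave 0.79 (adjusted p = 0.0151).

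Lipid genes changed in both directions. Of 18 fatty acid and ceramide genes 8 fell, 4 rose and 6 did not pass, with a median of -0.08 (-0.13 with the fixed set block). Alox12b, the lipoxygenase that prepares ceramides for the envelope, read 8.76, 8.76 and 8.72 at 6 h and 7.42, 7.09 and 7.25 at 24 h (-1.50 ± 0.11, adjusted p = 1.98e-09). Degs2, which makes phytoceramides, fell by 1.26, Ugcg, glucosylceramide synthase, by 1.16, and Elovl4, which makes very long fatty acids, by 0.93. Scd2, a fatty acid desaturase, rose by 1.00 (SE 0.18, adjusted p = 0.000289). Of 17 genes of cholesterol synthesis and uptake 6 rose and 11 did not pass, with a median of 0.29 (0.09 with the fixed set block). Mvd, mevalonate diphosphate decarboxylase, rose from 8.29, 8.59 and 8.32 to 9.11, 8.93 and 8.83 (0.56 ± 0.10, adjusted p = 0.000399), without overlap of the arrays.

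Of 11 antimicrobial genes 6 fell, 1 rose and 4 did not pass, with a median of -0.40 (-0.17 with the fixed set block). Defb6, a beta-defensin, went from 8.15, 8.27 and 8.37 to 6.25, 6.31 and 6.47 (-1.92 ± 0.14, adjusted p = 3.79e-09), and Defb4, another, fell by 1.05. Wfdc2, a protease-inhibitor-like secreted protein, rose by 0.71. Of 12 S100 calcium-binding proteins 4 fell, 1 rose and 7 did not pass, with a median of -0.14 (-0.30 with the fixed set block). S100a8 and S100a9, the subunits of calprotectin, fell by 0.89 and 1.12, S100a7a, a mouse relative of psoriasin, by 0.51, from 9.96 ± 0.21 to 9.45 ± 0.13 (SD, n = 3), and S100a3 rose by 0.81. Of 10 small proline-rich genes 3 fell, 1 rose and 6 did not pass, with a median of -0.19 (-0.44 with the fixed set block). Sprr2d, from 12.93, 12.91 and 13.01 to 12.27, 12.21 and 12.31, fell by 0.69, while Sprr2k rose from 6.09, 5.93 and 5.94 to 7.36, 7.67 and 7.39 (1.49 ± 0.15, adjusted p = 3.2e-07). Sprr2 genes are near-identical copies, so a probe may read more than 1 of them.

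Among cytokines 5 of 11 fell, 1 rose and 5 did not pass. Tslp, an alarm cytokine of keratinocytes, fell by 0.92 and Il33 by 0.64. Tnf was not detected on any 24 h array and was at least 1.3-fold lower there (adjusted p = 0.000123). Of 7 chemokines 3 fell and 4 did not pass. Cxcl12 fell by 0.65, but of its 2 other probes 1 gave -0.55 and the other 0.13. Cxcl2 was not detected at 24 h and was at least 1.06-fold lower. Of 10 matricellular and YAP-responsive genes 4 fell and 6 did not pass, among them Ccn2 (-1.17 ± 0.13, adjusted p = 9.63e-07) and Ccn1 (-1.03 ± 0.16), secreted proteins of the matrix. Of the 2 other Ccn1 probes 1 gave -0.84 and the other -0.16, the latter not past the threshold. In the TGF-beta list Smad3, a signal carrier, fell by 0.72, and Tgfbi, a matrix protein induced by the pathway, rose by 0.52, its second probe giving 0.26 (adjusted p = 0.325). Tnc, tenascin-C, fell by 0.97 by its brightest probe, but 1 of its 4 other probes passed, at -0.89.

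**Figure D3:**
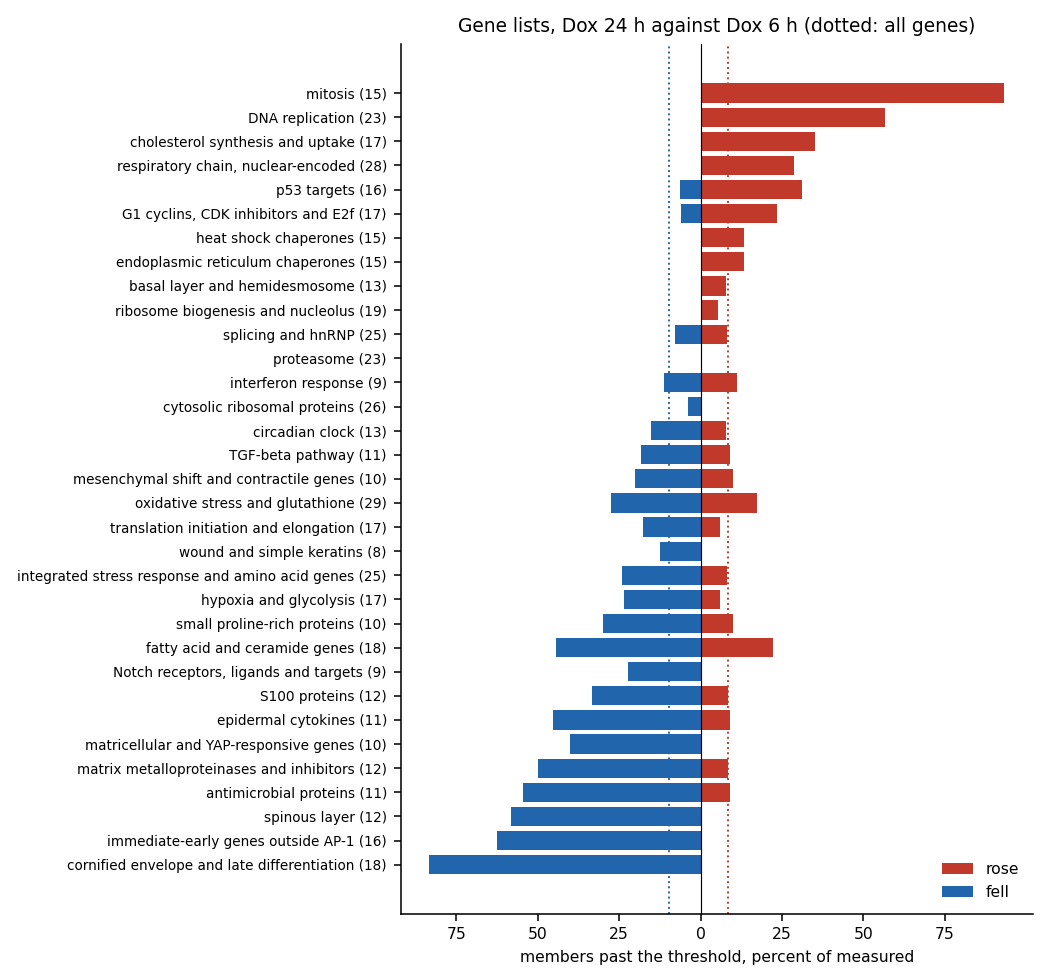
Share of each gene list's measured members that passed the threshold, lower at 24 h to the left and higher to the right, in percent, with the number measured in brackets and the shares over all genes (9.70% lower, 8.35% higher) dotted. Mitosis and DNA replication stand at the top of the order, and the cornified envelope at the bottom.

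Of 15 measured genes of mitosis 14 rose and 1 did not pass, with a median log2 difference of 0.67. Nusap1, a spindle protein, read 5.89, 5.91 and 5.74 at 6 h and 6.80, 7.30 and 6.92 at 24 h (1.16 ± 0.12, adjusted p = 5.02e-07). Cenpa, the histone that marks centromeres, went from 8.62, 8.75 and 8.80 to 9.80, 9.79 and 9.85 (1.09 ± 0.11, adjusted p = 4.86e-07). Plk1, a kinase that drives entry into mitosis, went from 6.48, 6.60 and 6.84 to 7.88, 7.39 and 7.74 (1.03 ± 0.13, adjusted p = 3.05e-06). In all 3 the lowest 24 h array was above the highest 6 h array, which for Nusap1 and Cenpa was a condition for naming them. Cdc20, the activator of the anaphase-promoting complex, rose by 0.82, Prc1, a midzone protein, by 0.77, and Aurka, a spindle-pole kinase, by 0.63. Shcbp1, a protein of the dividing cell's midbody, rose by 1.07, but its sign turned with the fixed set block (-0.24). Of the genes named in this paragraph only Plk1 passed with that block (1.31, adjusted p = 0.0348).

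Of 23 DNA replication genes 13 rose and 10 did not pass, with a median of 0.42. Rfc5 and Rfc2, clamp loader subunits, rose by 0.74 and 0.58, and Mcm10, a replication initiation factor, by 0.64. The second Mcm10 probe gave 0.50 (adjusted p = 0.0741). Mcm3, a helicase subunit, rose by 0.58, and Tyms, thymidylate synthase, by 0.55. None of these genes passed with the fixed set block (adjusted p = 0.113 for Rfc5 to 0.585 for Mcm3). The 2 other Tyms probes gave 0.83 (adjusted p = 0.000585) and -0.12 (adjusted p = 0.581). Of 17 G1 cyclins, CDK inhibitors and E2f genes 4 rose, 1 fell and 12 did not pass. E2f1, the transcription factor of S phase entry, rose from 6.88, 6.88 and 7.25 to 7.63, 7.78 and 7.55 (0.65 ± 0.12, adjusted p = 0.000419), and Ccnd3, a D-type cyclin, by 0.56.

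Promoters of Plk1, Cenpa and Cdc20 are shown because most mitosis genes rose and such promoters are known for 2 elements, CCAAT and the cell cycle homology region, searched here as TTTGAA. Matches on either strand are in capitals. The intervals are chr7:122159185-122159484 (+), chr5:30666636-30666935 (+) and chr4:118437294-118437593 (-), in the same frame and from the same source as above.
Plk1: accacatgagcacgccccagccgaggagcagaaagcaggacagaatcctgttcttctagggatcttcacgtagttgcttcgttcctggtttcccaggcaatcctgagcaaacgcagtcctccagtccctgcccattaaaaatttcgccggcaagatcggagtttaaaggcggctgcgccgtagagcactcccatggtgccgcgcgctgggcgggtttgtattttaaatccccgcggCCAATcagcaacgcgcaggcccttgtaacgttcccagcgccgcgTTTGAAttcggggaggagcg
Cenpa: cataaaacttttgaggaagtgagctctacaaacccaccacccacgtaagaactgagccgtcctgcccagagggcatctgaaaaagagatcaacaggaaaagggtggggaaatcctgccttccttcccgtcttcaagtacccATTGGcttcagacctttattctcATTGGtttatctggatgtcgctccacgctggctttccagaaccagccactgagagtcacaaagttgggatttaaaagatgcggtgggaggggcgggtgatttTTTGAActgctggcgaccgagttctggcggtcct
Cdc20: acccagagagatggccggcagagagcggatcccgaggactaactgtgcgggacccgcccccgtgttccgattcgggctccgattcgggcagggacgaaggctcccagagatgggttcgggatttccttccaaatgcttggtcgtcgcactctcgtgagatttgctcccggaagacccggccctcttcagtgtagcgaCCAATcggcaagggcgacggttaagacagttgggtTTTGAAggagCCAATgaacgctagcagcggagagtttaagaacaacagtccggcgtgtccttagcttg

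In Plk1 CCAAT begins at position -14 and TTTGAA at 30. In Cenpa CCAAT, on the other strand, begins at -109 and -86 and TTTGAA at 16, and in Cdc20 CCAAT begins at -53 and -8 and TTTGAA at -18. No printed match overlapped another. Of 14 mitosis genes with a promoter 11 (78.6%) held CCAAT and 11 held TTTGAA. Over the 6682 measured genes the shares were 43.8% and 14.2%, and over the 555 genes called higher they were 48.5% and 18.4%. DNA replication genes held CCAAT in 10 of 20 cases and TTTGAA in 3 of 20. These promoters too were picked after the results were known, because they hold both elements.

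Among the other rises, 5 of 16 p53 targets rose, 1 fell and 10 did not pass, with a median of 0.20 (0.00 with the fixed set block). Ccng1, cyclin G1, went from 8.44, 8.30 and 8.41 to 9.54, 9.48 and 9.34 (1.07 ± 0.10, adjusted p = 1.49e-07), and its 2 other probes gave 0.84 and 1.18. Fas, a death receptor, rose by 1.07, but it was detected on 1 of 3 arrays at 6 h, and its other probe gave 0.10 (adjusted p = 0.783). Trp53inp1 and Phlda3 rose by 0.69 and 0.64, and a second Trp53inp1 probe gave 0.40 (adjusted p = 0.133). Ms4a10, a membrane-spanning protein, had the largest rise, from 5.07, 4.89 and 5.34 to 6.56, 6.63 and 6.67 (1.52 ± 0.12, adjusted p = 7.76e-09). Pdia3, a disulphide isomerase of the endoplasmic reticulum, rose by 1.36 (SE 0.26), 1 of 2 members of its list of 15 to rise. Prmt1, an arginine methyltransferase, rose by 1.09, Slc23a3, a solute carrier, by 1.29, and Hspb6, a small heat shock protein, by 1.16.

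Oxidative stress genes went both ways, with 5 of 29 higher, 8 lower and 16 not passing. Hmox1, haem oxygenase, rose from 5.65, 4.48 and 4.91 to 6.05, 5.97 and 6.25 (1.08 ± 0.23, adjusted p = 0.00192), with 2 of 3 arrays detected at 6 h. Mgst2 and Gstm2, glutathione transferases, rose by 0.68 and 0.61, and Mt2, a metallothionein, was not detected at 24 h and was at least 1.57-fold lower. In the integrated stress response list 6 of 25 fell, 2 rose and 17 did not pass. Nupr1, a stress-induced chromatin protein, went from 9.0, 9.04 and 9.01 to 7.79, 7.46 and 8.04 (-1.26 ± 0.16, adjusted p = 4.49e-06), without overlap, and Slc7a11, the cystine transporter, fell by 0.76. Ndrg1, a hypoxia-responsive gene, fell by 1.14, and by 0.49 with its second probe. Per1, a clock repressor that serum and hormones also induce, fell by 0.93, and its second probe gave -0.95.

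Few housekeeping genes passed. Of 26 cytosolic ribosomal protein genes 1 fell and 25 did not pass, and the median was 0.00. Of 19 ribosome biogenesis genes 1 rose, Ncl, nucleolin (0.57 ± 0.13), and 18 did not pass. Splicing factors gave 2 rises and 2 falls among 25, near the share over all genes, with a median of 0.04 (-0.25 with the fixed set block). Of 17 translation factors 1 rose, 3 fell and 13 did not pass, and none of 23 proteasome genes passed. In the respiratory chain 8 of 28 nuclear-encoded subunits rose, a larger share than the 8.35% of all genes. The other 20 did not pass, and the list's median was 0.23 (0.08 with the fixed set block).

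The course over the day differed between genes. Between Dox 6 h and Dox 12 h 104 genes passed (1.27%), 51 higher (0.622%) and 53 lower (0.647%), and between Dox 12 h and Dox 24 h 467 passed (5.70%), 165 higher (2.01%) and 302 lower (3.69%). The 12 h arrays were all of set 2, so the first step also changes set, and it was the less stable of the 2: leaving out 1 array of either time left 8 (without Dox 6 h replicate 1) to 50 genes, and with the set as a random block 1 remained. Median differences from the Dox 6 h mean show the course of each list. The AP-1 list stood at -0.35, -0.37 and -0.16 on the 12 h arrays and at -0.96, -0.71 and -0.85 on the 24 h arrays. Mitosis stood at 0.16, 0.32 and 0.29 and then at 0.70, 0.72 and 0.72, and the cornified envelope at -0.18, -0.16 and -0.23 and then at -0.72, -0.76 and -0.61. The first 24 h value of each is replicate 1, of set 2 like the 12 h arrays. In these 3 lists every 12 h array lay between the 6 h and the 24 h arrays. Single genes differed in course. Hmox1 was at 6.84, 5.83 and 6.01 at 12 h, as high as at 24 h, and S100a9, at 7.45, 7.06 and 7.47, overlapped its 24 h values. Mmp13, Hbegf (8.99, 8.71 and 9.02 at 12 h) and Tnc (9.26, 9.24 and 9.34) overlapped their 6 h values at 12 h, with differences of 0.00, 0.02 and 0.02, none past the threshold.

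**Figure D4:**
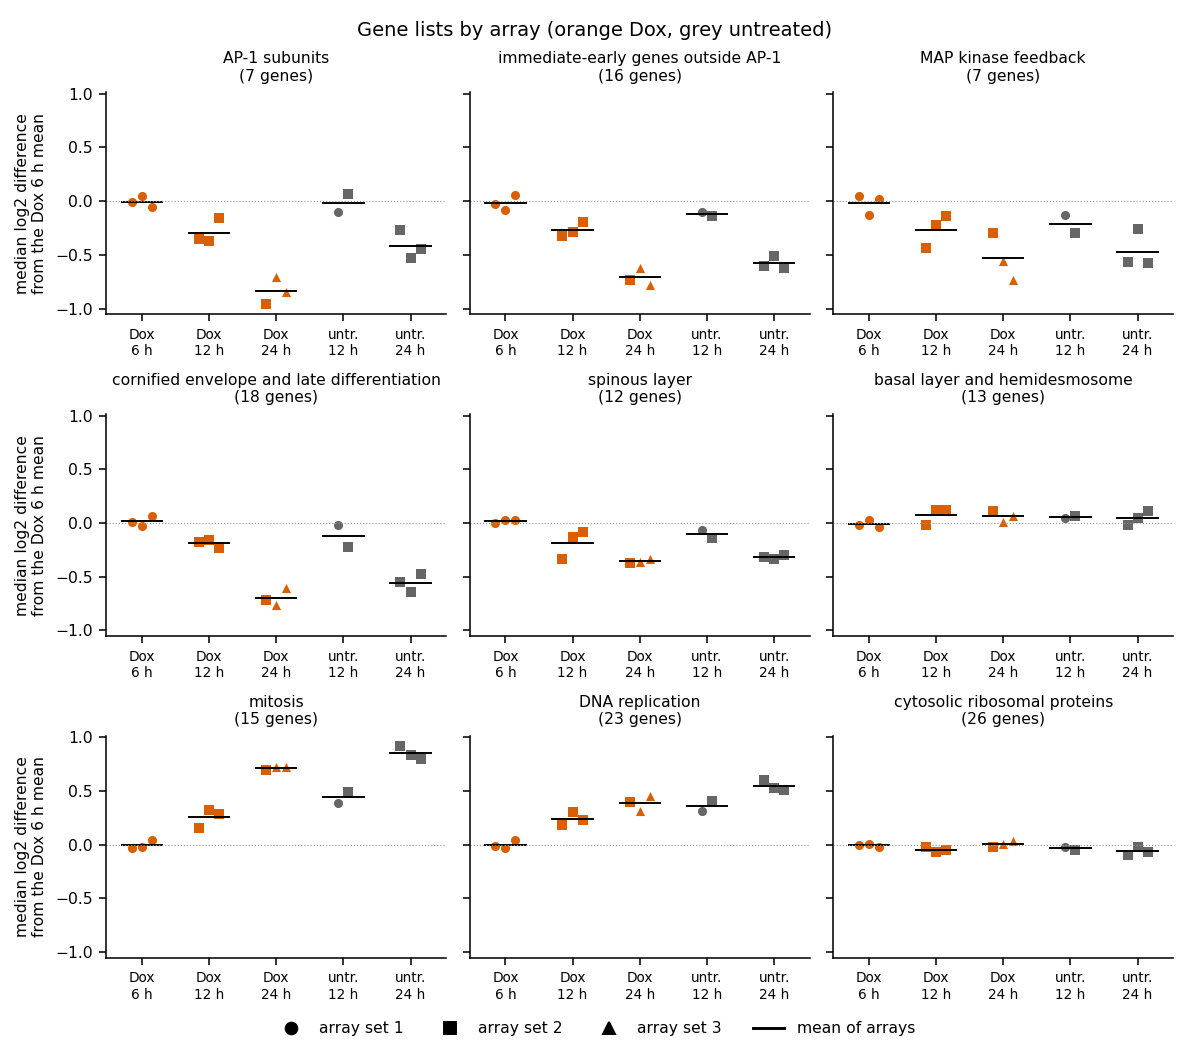
Median over each list's genes of the log2 difference from the Dox 6 h mean (vertical), for each array of the Dox 6, 12 and 24 h and untreated 12 and 24 h groups, with the array set as the point's shape and a line at each mean. AP-1, immediate-early and envelope genes step down and mitosis and replication genes up with time, with Dox and without, while basal and ribosomal genes stay near 0.

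Untreated cultures also changed over time, mostly in the same directions. Between untreated 12 h and 24 h, arrays that share none with the comparison above, 454 genes passed (5.54%), 172 higher (2.10%) and 282 lower (3.44%). Of the 1479 genes called with Dox, 1291 (87.3%) had the same sign without it, against 65.3% of all genes: 575 of the 684 higher and 716 of the 795 lower. Of the 454, 308 were also called with Dox, 303 of them in the same direction. They are 67.8% of the untreated calls and 20.8% of the Dox calls. Across the 8194 genes the 2 differences correlated at r = 0.57 and rho = 0.48, where genes are not independent and both comparisons run partly from set 1 to set 2. Within set 2, the 3 untreated 24 h arrays against the 1 untreated 12 h array there had the called sign for 1173 genes (79.3%, against 60.2% of all genes), with r = 0.43. The untreated 12 h arrays are those with the shifted Actb probe pair. The count fell to 70 without untreated 12 h replicate 1, and to 100 with the Actb pair as a covariate.

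Several of the genes that led the Dox comparison show this course without Dox. Hs3st1 was at 7.78 and 7.69 in untreated cultures at 12 h and at 6.03, 6.01 and 6.13 at 24 h (-1.67, adjusted p = 1.3e-08), close to its levels with Dox. Defb6 fell by 1.07, Jun by 1.10, Egr2 by 0.86, Alox12b by 1.23 and Mmp13 by 1.39 in the untreated cultures, and Ccng1 rose by 1.04 and Ms4a10 by 1.32, each past the threshold. Of the mitosis list 7 of 15 rose without Dox and 8 did not pass, with a median of 0.40. Hmox1, higher at 24 h than at 6 h with Dox, fell from 6.21 and 6.43 to 5.01, 4.76 and 4.93 without Dox (-1.42, adjusted p = 0.00163). Its rise with Dox was already present at 12 h, and its Dox 12 h and 24 h arrays overlapped. Because the Dox comparison starts at 6 h and the untreated one at 12 h, sizes cannot be set against each other. Nor can the opposite directions of Hmox1.

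**Figure D5:**
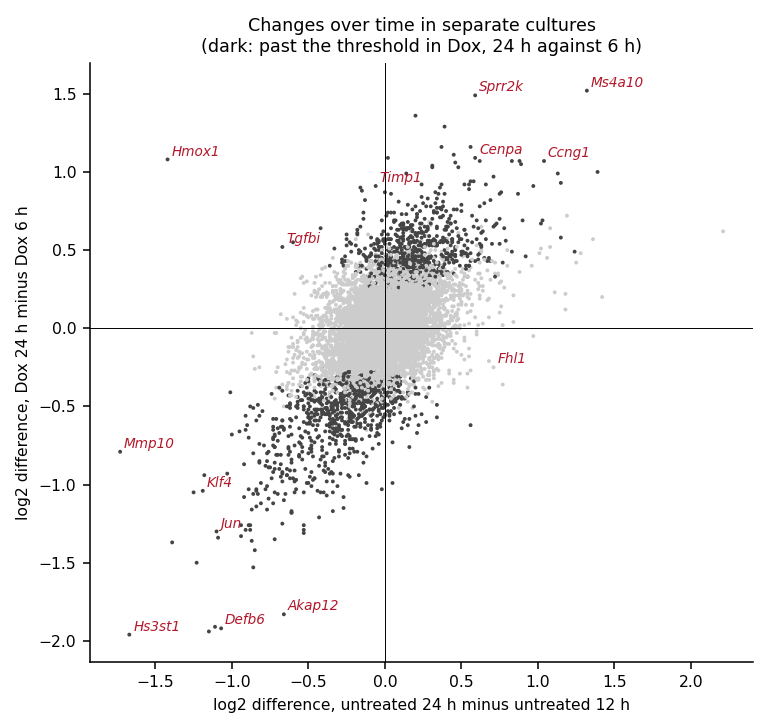
Each point is a gene, placed by its log2 difference between untreated 24 h and 12 h (horizontal) and between Dox 24 h and 6 h (vertical), with genes past the threshold in the Dox comparison dark. The cloud runs from Hs3st1 and Defb6 at the lower left to Ms4a10 at the upper right (r = 0.57), and Hmox1 lies far out at the upper left.

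The matched interval, 12 to 24 h, allows the difference between treatments itself to be tested. In limma's test 2 of 8194 genes passed (0.0244%), Fhl1 and Zfp956, and 643 had an unadjusted p under 0.05. The median SE of this difference was 0.195. Fhl1, a LIM-domain protein, was at 7.82, 7.95 and 7.91 at 12 h and 7.70, 7.43 and 7.45 at 24 h with Dox, and at 8.04 and 7.83 and then 8.46, 8.78 and 8.71 without, a difference of -1.08 ± 0.16 (adjusted p = 0.0102). It rose in the untreated cultures (0.71, adjusted p = 0.00101). The difference did not pass with the set as a fixed block (-1.01, adjusted p = 0.755), with the Actb pair as a covariate (-0.93, adjusted p = 0.0937) or without Dox 12 h replicate 2, Dox 24 h replicate 2 or 3, or untreated 24 h replicate 2 (adjusted p = 0.0532 to 0.0616). For Hmox1 the difference was 1.28 ± 0.34 (adjusted p = 0.296), for Fos -0.44 ± 0.23 (adjusted p = 0.622) and for Mmp10 0.97 ± 0.22 (adjusted p = 0.208), none past the threshold.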

How the data were processed

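Total RNA was measured on 29 Illumina bead arrays. The authors deposited, per the file headers, a signal intensity and a detection p-value for each of 25697 probes on each array, and a second table of log2 values, whose making no label describes (not given in the sources used here). Its distributions fall into 4 array sets (median quantile difference under 0.02), and it was used only for these sets and as an alternative.

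The 27 arrays other than the 2 untreated 6 h arrays were background-corrected and quantile normalized with neqc (limma 3.58.1, R 4.3.3; offset 16). Probes detected (p under 0.01) on at least 2 arrays were kept, 11687 of 25697. A gene was read by its brightest kept probe, named from the platform annotation (23978 probes with 1 symbol, 1719 with none), which gave 8194 genes. The 72 h arrays of letter C were averaged in each treatment, leaving 25 replicates in 9 groups. Limma was fitted to all groups (16 residual degrees of freedom) without a block, and p-values were adjusted by Benjamini-Hochberg over all kept probes, with a threshold of 0.05. Where a gene was detected on no array of a group, the fold is a bound: the bright group's mean against the higher of the dim probe's own value and the lowest signal among detected probes, per array.

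Lists and members were chosen with earlier results of these data known. Named were Fos, Mmp10, S100a7a, the 15 largest rises and falls among called genes whose arrays do not overlap, up to 4 members of each list by adjusted p, and genes past the test of the difference between treatments. Jund, Fosl1, Klf4, Egr1, Ivl, Krt10, Mmp3, Cdc20, Scd2, Tgm1, Aurka and Mcm3 fall outside this rule and were named after their values were seen. Deviations of same-numbered Dox 6 h and 24 h arrays correlated at -0.02, -0.02 and 0.04, so the numbers were not taken to pair them. The scripts were tested on simulated data.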

Additional observations from a re-analysis of the deposited data

Results flagged for a closer look

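The change from 12 to 24 h differed between Dox and untreated cultures for 2 genes, by limma's test of the difference itself. Fhl1 gave -1.08 (adjusted p = 0.0102), with values by array in the report. Zfp956, a zinc-finger protein, gave -0.93 (adjusted p = 0.0379): with Dox it was at 4.78, 4.72 and 4.85 at 12 h and 4.47, 4.47 and 4.25 at 24 h, and without Dox at 4.40 and 4.51 and then 5.09, 5.05 and 4.89. Zfp956 was detected on no Dox array at 6 or 24 h, so it was read near the detection limit. Beside these values, the Actb probe pair was shifted on both untreated 12 h arrays and on untreated 24 h replicate 1. With that pair as a covariate neither gene passed (adjusted p = 0.0937 for Fhl1 and 0.149 for Zfp956). The Zfp956 call was also lost without background correction (-0.37, adjusted p = 0.163), with the replicate block in 9 groups (0.0736), the fixed or random set block (0.83 and 0.0868), array weights (0.11), separate 72 h arrays (0.104), the minimum fold of 1.2 and the authors' values quantile normalized over all arrays (0.157). With 1 array left out it passed without untreated 12 h replicate 2 or untreated 24 h replicate 3 (0.0189 and 0.0376) and otherwise did not (0.0541 to 0.264).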

How the results depend on the processing

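The count for Dox 24 h against 6 h (1479) stayed within 1.5 times under 19 of 25 alternatives, 1068 to 1359 when 1 of the 6 arrays was left out. It was 917 with median scaling, 6318 with the authors' values, 286 with a minimum fold of 1.2, 966 with only the 6 arrays compared, and 36 with the array set as a fixed block. With the same-letter replicate block it was 1492 in all 9 groups and 689 in the 6 arrays alone. The labels do not say whether arrays of 1 letter share a preparation, and the main fit did not pair them. Of 150 named genes past the threshold, 19 also passed with the fixed set block. The count for Dox 12 h against 6 h (104) was 259 without background correction, 63 with cyclic loess, 2328 with median scaling, 6307 with the authors' values, 267 with those quantile normalized, 178 with detection on 3 of the 6 arrays, 172 with probe means, 0 with the minimum fold, 35 with the 5 Dox groups, 0 and 1 with the fixed and the random set block, and 8 to 50 without 1 array. The count for Dox 24 h against 12 h (467) was 1075 with median scaling, 1345 with the authors' values, 44 with the minimum fold, 86 with the fixed set block and 248 to 529 without 1 array. The untreated count (454) was 249, 1030, 57 and 67 in the same order, 100 with the Actb covariate and 70 to 466 without 1 array. The difference between treatments (2) had 4 genes without background correction, with cyclic loess, without a filter and with quantile normalized authors' values, 20 with median scaling, 1847 with the authors' values, 1 with the stricter detection filter, the replicate block in 9 groups, the random set block, array weights or separate 72 h arrays, 0 with the minimum fold, the fixed set block or the Actb covariate, and 0 to 15 without 1 array. With the authors' values, whose median over all genes moved by 0.20, 22 of 152 named genes changed sign: Mmp9 to 0.00, Adm, Krt10 and Tgm1 to 0.02, Tnf to 0.03, Egfr, Ptpn14, Slc7a11, Mt2 and Hes1 to 0.04, Cxcl2 and Jund to 0.05, Dsg1b and Snrpa to 0.07, S100a4 to 0.09, Dusp4, Tgfb1 and Cdkn1c to 0.10, Notch3, Mgst1 and Fhl1 to 0.12, and Zfp956 to 0.13. With the fixed set block the sign turned for Shcbp1 (-0.24), Dusp4 (0.29), Nr1d1 (0.03), Hes1 (0.16), Hnrnpa2b1 (-0.20), Atp5o (-0.05) and Fhl1 (0.13), and with probe means for Eef1b2 (0.05). The fixed block leaves the 2 times linked by 2 arrays and the 24 h side resting on Dox 24 h replicate 1 alone. Its larger SE reflects both. The causes of the other changes were not tested. Fold changes of genes near the detection limit are limited by signal over background.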
